A study of Homo sapiens with 3 samples.

Results

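Hoechst 33342 (H342) was compared directly with Hoechst 33258 (H258), its close analog, in H2373, an established line of human mesothelioma, the cancer of the lining of the pleura. The comparison takes the array of cells given 36 µM H342 for 3 h and the array of cells given 36 µM H258 for 3 h, so dose and time are matched. Culture, RNA and array differ along with the dye and cannot be told apart from it. Both arrays belong to a set of 3 Illumina BeadChips, of which the last holds RNA of untreated H2373 cells that entered neither the normalization nor the calls. A gene was tested when its probe was detected at a p under 0.05 against the negative control beads of at least 1 of the 2 arrays, which left 10297 of 18851 genes with a probe. Each condition has 1 array and the labels name no separate cultures, so no error, interval or p-value can be given for any difference, and 1 pair of compounds was compared. A gene is called here by size alone, at a 2-fold difference or more.

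H258 and H342 are bisbenzimide dyes that lie in the minor groove of DNA, with a preference for runs of A and T. They differ in structure at the terminal phenyl ring, which carries a hydroxyl group in H258 and an ethoxy group in H342. H342 is the usual choice for staining living cells because it enters them more readily.

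On the H342 array 380 genes were higher than on the H258 array, 3.69% of those tested, and 371 were lower, 3.60%. The remaining 9546 genes, 92.7%, lay within 2-fold, and the median log2 difference of all genes tested was -0.01. The differences themselves were wide for single arrays: 5% of the genes lay below -0.86 and 5% above 0.89 on the log2 scale, so a call near 2-fold is close to the edge of the whole distribution. Large differences were more often decreases under H342. Among the lower genes 54 lay between 3 and 4-fold, 47 between 4 and 8-fold and 6 beyond 8-fold, against 30, 11 and 1 among the higher genes. Of the genes higher under H342, 328 were detected on both arrays and 52 on the H342 array alone, and of the lower genes 297 were detected on both and 74 on the H258 array alone. Among 5035 genes with a signal of 500 or more on both arrays, where the background weighs little, 111 were higher and 71 lower, 2.20% and 1.41%. Counts in the gene lists below stand beside 3.69% higher and 3.60% lower of all genes tested. Without background correction 133 of all genes tested were higher and 156 lower.

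**Figure D1:**
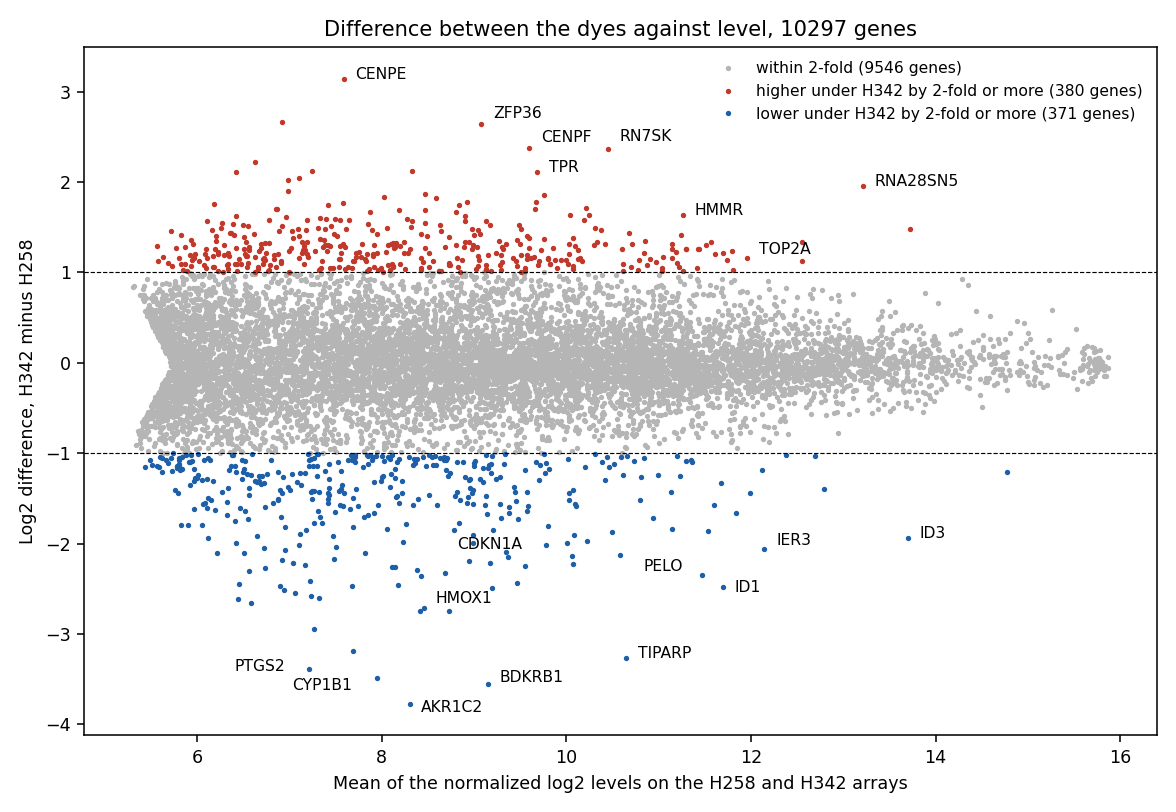
Log2 difference between the arrays (H342 minus H258, vertical) against the mean of the 2 normalized log2 levels (horizontal) for the 10297 genes tested, 1 point a gene; dashed lines mark 2-fold. The 380 higher and 371 lower genes lie at all levels, and the points farthest from 0 are AKR1C2 at -3.77 and CENPE at 3.14.

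Among the genes farthest below on the H342 array were enzymes that reduce and oxidize aldehydes, steroids and foreign compounds. AKR1C2, an aldo-keto reductase of steroids and carbonyls, had a signal of 1297 under H258 and 194 under H342, with 5158 in untreated cells. Its log2 difference was -3.77, which became -2.71 without background correction. AKR1B10, an aldo-keto reductase of retinal and other aldehydes, had 743 and 175 with 3002 untreated, a log2 difference of -3.18 (-2.04 without the correction). Both were lower on either dye array than on the untreated array, and lowest under H342. ALDH1A1, which oxidizes retinal to retinoic acid, had 327 under H258 and was not detected under H342. It was at least 4.11-fold lower on the background-corrected scale, with the undetected side set to the lowest detected level, and 2.60-fold lower without the correction. Such limits hold on the corrected scale alone, and the uncorrected fold, which is smaller, is given beside each. Of 8 aldo-keto reductases tested 3 were lower, 37.5% beside 3.60% of all genes tested, and none higher. The median of the family was -0.22. AKR1C3 and AKR1C4, close relatives of AKR1C2, had log2 differences of -0.22 and -0.21, and since sequences of this subfamily are nearly identical, signal shared between its probes cannot be told apart.

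The aryl hydrocarbon receptor is a transcription factor that binds planar foreign compounds and, with its partner ARNT, turns on genes through sites that hold the letters GCGTG. TIPARP, a mono-ADP-ribosyltransferase that is induced by the receptor and represses it, gave 5321 under H258 and 623 under H342, beside 6526 in untreated cells, a log2 difference of -3.27 that was -3.02 without background correction. This was the largest decrease among genes with a signal of 500 or more on both arrays. CYP1B1, a cytochrome P450 induced through the receptor, gave 949 and 182 beside 1460 untreated, a log2 difference of -3.49 (-2.36 without the correction). CYP1A1, the classic target of the receptor, was dim: it had 209 under H258 and was not detected under H342, at least 1.88-fold lower on the corrected scale and 1.49-fold without the correction. ALDH3A1, another target, had 202 and was not detected under H342, at least 1.74-fold lower on the corrected scale and 1.67-fold without the correction. The receptor itself did not follow its targets, with 2927 under H258 and 3249 under H342 for AHR, a log2 difference of 0.26, and NQO1, a quinone reductase shared with the NRF2 pathway, was at 0.05. Over the 8 pathway genes tested the median was -0.70, and 4 passed 2-fold downward and 0 upward, of which TIPARP and CYP1B1 stayed past it without background correction. CYP1A1 and ALDH3A1 were counted on their measured corrected levels, with log2 differences of -1.24 and -1.44, and did not reach 2-fold by the limits above. The promoter windows of CYP1A1 (chr15:74725479-74725778, minus strand) and TIPARP (chr3:156674340-156674639, plus strand) are shown as examples from the 4 genes counted as lower. Of this pair CYP1A1 was dim and short of 2-fold by its limit. The windows run from 250 bases before to 50 bases after the RefSeq start on GRCh38.p14, with GCGTG on either strand (CACGC as read here) in capitals.
CYP1A1: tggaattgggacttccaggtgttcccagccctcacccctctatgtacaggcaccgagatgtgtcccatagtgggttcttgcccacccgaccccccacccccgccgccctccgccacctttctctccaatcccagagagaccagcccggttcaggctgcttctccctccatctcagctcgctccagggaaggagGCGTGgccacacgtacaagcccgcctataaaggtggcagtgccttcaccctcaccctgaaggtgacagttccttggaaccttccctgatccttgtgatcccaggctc
TIPARP: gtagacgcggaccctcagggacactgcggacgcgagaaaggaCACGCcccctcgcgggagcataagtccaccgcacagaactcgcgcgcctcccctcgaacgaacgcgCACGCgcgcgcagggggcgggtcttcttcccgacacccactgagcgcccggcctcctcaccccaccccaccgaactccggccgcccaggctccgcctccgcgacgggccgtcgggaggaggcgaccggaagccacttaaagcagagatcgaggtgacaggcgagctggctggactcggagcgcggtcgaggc
The CYP1A1 window holds 1 match and this TIPARP window 2, while the other 2 windows listed for TIPARP hold 0. The letters are common: 36.5% of all 35116 RefSeq promoter windows hold them, as did at least 1 window of 60.0% of the higher genes, 60.8% of the lower genes and 58.6% of all tested genes with a window, so the match sets neither group apart.

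Of 19 tested genes of kinin, prostaglandin and cytokine signalling, 8 were lower under H342, 42.1% beside 3.60% of all genes tested. Only 1 was higher, 5.26% beside 3.69%, and the median was -0.49. BDKRB1, the inducible receptor for kinins, had a signal of 2115 under H258 and 273 under H342 with 2691 untreated, a log2 difference of -3.55 that was -2.90 without background correction. PTGS2, the inducible cyclooxygenase that starts prostaglandin synthesis, had 592 under H258 and was not detected under H342. This probe was at least 9.11-fold lower on the corrected scale and 3.99-fold without the correction. The mean over the gene's 2 detected probes was a smaller log2 difference, -2.52 against -3.39 for this probe. PTGER4, a receptor for the prostaglandin made downstream of it, was at -1.34 (-0.66 without the correction). IL11, a cytokine of the interleukin 6 family, had 316 and was not detected under H342, at least 3.90-fold lower on the corrected scale and 2.40-fold without the correction, whereas IL6ST, the receptor subunit that both cytokines signal through, was higher, 807 against 2177, a log2 difference of 1.63 (1.10 on the mean of its 2 detected probes). The interleukin 1 genes IL1A and IL1B were at -1.10 and -1.32, or -0.89 and -0.90 without the correction, and the chemokine CCL2, a bright gene that attracts monocytes, had 10227 and 4531, at -1.03. Without background correction the lower genes of the list numbered 4. IL6, at 8564 and 6172, and CXCL8, at 6251 and 3302, stayed within 2-fold, with log2 differences of -0.36 and -0.84.

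Of 18 tested genes of BMP signalling 5 passed 2-fold downward under H342, 27.8% beside 3.60% of all genes tested. In the other direction 0 passed it, and the median was -0.67. BMP ligands act through SMAD proteins and induce the ID genes, which hold back differentiation factors, and the inhibitory SMADs, which damp the pathway. ID1 had a signal of 8355 under H258 and 1485 under H342, with 4454 untreated, and ID3 had 27280 and 6625, with 18838 untreated. Their log2 differences were -2.47 and -1.94, and both were above the untreated signal under H258 and below it under H342. The inhibitory SMADs SMAD6, at 3420 and 832, and SMAD7, at 461 and 231, had -2.12 and -1.49, and the BMP antagonist NOG had -1.18. SMAD7 and NOG fell just short of 2-fold without background correction, at -0.97 and -0.93. ID2 and BAMBI fell short of 2-fold at -0.81 and -0.77, and the signal-carrying SMAD5 lay on the other side at 0.72. Among phosphatases and adaptors that shut off MAP kinase signalling, DUSP1 had 3954 and 1615, a log2 difference of -1.25, and SPRY2 had 1282 and 485, at -1.59. SPRY4, with 306 under H258, was not detected under H342 and was at least 3.72-fold lower on the corrected scale, but 1.95-fold without the correction. The list of these feedback genes had 4 of 15 past 2-fold downward, 26.7% beside the same 3.60%, 0 upward and a median of -0.70. DUSP6, the fourth of them, did not reach 2-fold by its limit of at least 1.74-fold on the corrected scale. It was at 1.37-fold without the correction. Without background correction 2 of the 15 were lower.

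Immediate-early and short-lived regulators split. IER3, a stress-induced survival gene, had 9886 under H258 and 2264 under H342, a log2 difference of -2.06. CITED2, a coactivator antagonist of hypoxia signalling, was at -1.72, the kinase SGK1 at -1.44, MCL1, a short-lived survival protein of the BCL2 family, at -1.41 and KLF4 at -1.12 (-0.99 in the deposited value table). ZFP36 went the other way. This RNA-binding protein, which shortens the life of messenger RNAs with AU-rich elements, had a signal of 327 under H258 and 1425 under H342, with 292 untreated, a log2 difference of 2.64 that was 2.16 without background correction. FOS was not detected under H258 and had 285 under H342, at least 3.34-fold higher on the corrected scale and 2.07-fold without the correction, and JUNB, its AP-1 partner, had a log2 difference of 1.06 (0.76 without it). They were the 2 higher of 13 AP-1 and ATF genes tested, 15.4% beside 3.69% of all genes tested, and 0 were lower. The median of that list was -0.05, with 6 genes above 0 and 7 below. FOSL2 and MAF were at -0.84 and -0.83 (-0.38 and -0.41 without the correction). In the EGR, KLF, IER and NR4A list the median was -0.46, with 5 of 24 genes lower, 20.8% beside 3.60% of all genes tested. ZFP36 was the 1 higher gene, 4.17% beside 3.69%. The relative ZFP36L1 was at -0.50.

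Among 40 cyclins, cyclin-dependent kinases and other genes of mitotic entry, 5 passed 2-fold downward and 3 upward, and the median was 0.03. Without background correction 3 were lower and 1 higher. CDKN1A, the p21 inhibitor of cyclin-dependent kinases, had 1926 under H258 and 542 under H342, a log2 difference of -2.01, with 1348 untreated. CCNE1, the cyclin of S phase entry, had 961 and 355, at -1.77, and CDC25A, the phosphatase that activates its kinase partner, was at -1.28, which the deposited values put just under 2-fold. DDIT3, the CHOP factor of the integrated stress response, had 2503 and 604, at -2.22, with 1473 untreated, and CHAC1, a glutathione-degrading enzyme of the same response, was at -2.21 (-1.22 without the correction). Those 2 and SESN2 were the lower genes of 29 in the ATF4 and unfolded protein response list, 10.3% beside the same 3.60%, and 0 were higher. HMOX1, heme oxygenase 1, had 1005 and 240, at -2.74 (-2.04). It was the only lower gene of 22 NRF2 targets tested, 4.55% beside 3.60%, and the median of that list was -0.10. PELO, which rescues stalled ribosomes, had 6678 and 1333, at -2.35, and RBM15, an RNA-binding protein that guides adenosine methylation, had 1532 and 421, at -2.15.

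**Figure D2:**
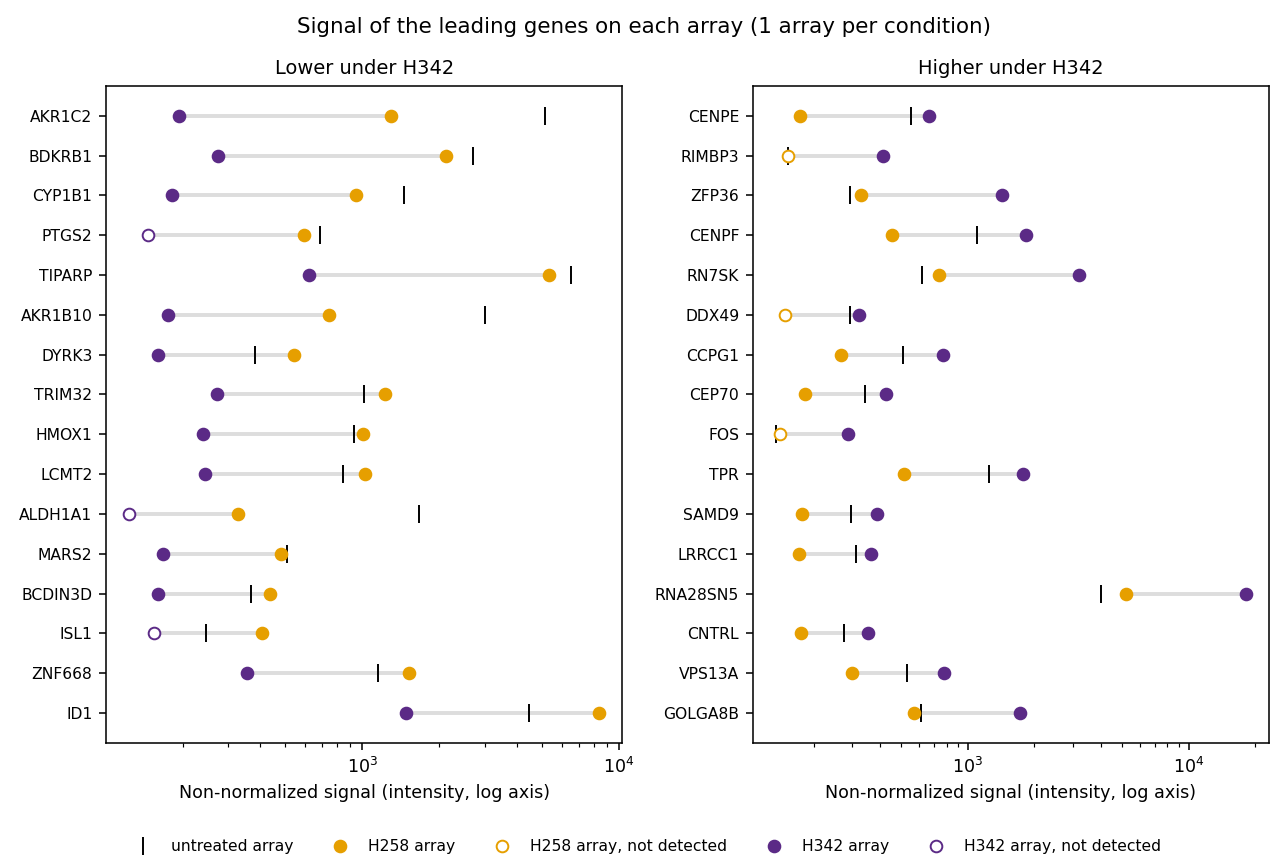
Non-normalized signal (log axis) of the 16 lowest and 16 highest named genes on the H258 array (orange) and the H342 array (purple), with open circles where the probe was not detected and a tick for the untreated array. AKR1C2, AKR1B10 and ALDH1A1 have their untreated tick far above both dyes, while ZFP36, RN7SK and RNA28SN5 have it close to or below H258.

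Zinc finger genes, which encode the largest class of human transcription factors, gave the highest number of lower genes of any list. Of 244 tested genes named ZNF, 40 were lower, 16.4% beside 3.60% of all genes tested, and 10 higher, 4.10% beside 3.69%. Their median was -0.27. Of 42 genes with a BTB or SCAN domain 14 were lower, 33.3%, and 1, ZBTB20, was higher, 2.38%, with a median of -0.54. ZNF668 had 1526 under H258 and 355 under H342, a log2 difference of -2.49, ZNF35 had 595 and 196, at -2.46 (-1.59 without background correction), and ZBTB9 had 721 and 259, at -1.98. Among the ZNF genes 161 lay below 0 and 83 above it. Without background correction 10 ZNF genes were lower and 4 higher, and 3 of the BTB and SCAN genes were lower.

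Small nucleolar RNAs guide the chemical modification of ribosomal RNA and are mostly cut from introns of ribosomal protein and other host genes. Of 38 tested, 12 were lower and 2 higher under H342, 31.6% and 5.26% beside 3.60% and 3.69% of all genes tested. Their median of -0.86 was the lowest of the lists. SNORA33 had 794 under H258 and 231 under H342, a log2 difference of -2.45, SNORD36C had 458 and 172, at -2.41, and SNORA62 had 739 and 238, at -2.25. Without background correction these were -1.75, -1.39 and -1.60. SNORD13, at 1681 and 3536, and SNORD46, at 227 and 450, were higher, with 1.23 and 1.58. On that scale 5 of the 38 were lower and 2 higher. The messenger RNAs of the host genes RPS12 and RPL7A, which carry SNORA33 and SNORD36C, differed by -0.14 and 0.10. TERC, the RNA of telomerase, was lower as well, 414 against 197, at -1.77 (-1.06 without the correction).

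Of 8 small nuclear, ribosomal and related RNAs tested, 4 were higher and 1, TERC, was lower, and 2 were higher without background correction. Of 90 long noncoding RNAs 1 was higher and 0 lower, with a median of -0.07. RN7SK, which sequesters P-TEFb, the kinase complex that releases paused RNA polymerase II, had 737 under H258 and 3167 under H342, with 616 untreated, a log2 difference of 2.37 and of 2.18 without background correction. The 28S ribosomal RNA probe, RNA28SN5, had 5170 and 18071, with 3985 untreated, at 1.95. RNU6ATAC, of the minor spliceosome, was at 1.07 but at 0.88 without the correction. RNU2-1, which went undetected under H258, was at least 2.60-fold higher on the corrected scale alone, and 1.58-fold higher without the correction. RN7SL1, the RNA of the signal recognition particle, stayed at 0.33. The proteins around RN7SK did not move together: MEPCE, the enzyme that caps it, had 2556 under H258 and 704 under H342, at -1.97, and LARP7, which binds its end, had 426 and 938, at 1.42. CDK9, the kinase of P-TEFb, was at -0.05. Mature small nuclear, nucleolar and ribosomal RNAs lack the poly(A) tail from which array RNA is usually amplified, and 7SK, 28S and small nuclear RNAs have many near-identical copies in the genome, so which copies these probes measured is uncertain.

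Motors, scaffolds and chromosome proteins of mitosis were among the genes highest under H342. CENPE, a kinesin of the kinetochore that moves chromosomes along microtubules, had a signal of 174 under H258 and 669 under H342, with 553 untreated, a log2 difference of 3.14 that was 1.98 without background correction. CENPF, a large kinetochore protein, had 454 and 1831, with 1102 untreated, at 2.38 (2.06 without the correction). In both genes the untreated signal lay between the dyes, and on a log scale it was nearer to H342. Of 25 kinesins tested 5 were higher, 20.0% beside 3.69% of all genes tested, and 0 lower, with a median of 0.52. Besides CENPE the higher kinesins were KIF20B, at 565 and 1535 with 1.70, and KIF14, at 385 and 941 with 1.62. The others were KIF15 with 1.31 (0.83 without the correction) and KIF5B, the transport motor of interphase cells, with 1.25. Of 50 kinetochore and spindle checkpoint genes 10 were higher, 20.0%, among them SGO2, which protects centromeric cohesion, at 1.58 (0.80), and KNTC1 at 1.36. MIS12, a short subunit of the kinetochore, was the lower exception, 2290 against 1037, at -1.16. This list had a median of 0.10, and 4 of its genes stayed higher without background correction. HMMR, a spindle protein and hyaluronan receptor, was a bright example with 1535 and 4257, at 1.63.

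Genes of the centrosome, the center from which microtubules grow, had the highest share of higher genes among the lists of proteins. Of 50 tested, 15 were higher, 30.0% beside 3.69% of all genes tested, and 0 lower, with 39 above 0 and a median of 0.58. CEP70 had 184 under H258 and 423 under H342, with 341 untreated, a log2 difference of 2.12 (1.23 without background correction). CNTRL had 175 and 352, with 274 untreated, at 1.90 (1.03). PCM1, which organizes the satellites around the centrosome, had 900 and 1772, at 1.13 (0.98 in the deposited value table). CEP290, mutated in ciliary disease, was undetected under H258 and at least 2.23-fold higher on the corrected scale, but 1.67-fold without the correction. Of the 50 genes 5 were higher without background correction. Every one of the 380 higher genes of the whole comparison kept its direction in the deposited value table, as did all 371 lower genes. That table holds the same arrays under another normalization, so it is no separate measurement. Without background correction the direction could not turn, because the correction and quantile normalization keep the rank order within each array.

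The cohesin, condensin and SMC list, whose ring complexes hold and fold chromosomes, moved among bright genes as well. Of 29 tested 8 were higher, 27.6% beside 3.69% of all genes tested, and 0 lower, with a median of 0.31. Without background correction 8 were higher too. SMC2 had 360 under H258 and 937 under H342, with 779 untreated, a log2 difference of 1.75 (1.18 on the mean of its 3 detected probes). SMC3 had 879 and 2170, with 2166 untreated, at 1.49 (0.94 on the mean of its 2 detected probes), and SMC4 had 1958 and 4214, at 1.26. NIPBL, which loads cohesin onto DNA, was at 1.49. The topoisomerases that pass one DNA duplex through another, TOP2A, at 2857 and 5919, and TOP2B, at 1294 and 2964, were at 1.16 and 1.35. The helicase RECQL, at 592 and 1332, was at 1.39 (1.07 on the mean of its 3 detected probes). The untreated signal was 7154 for TOP2A, above both dyes, and 2837 for TOP2B and 1233 for RECQL, between the dyes. TOP1, which nicks a single strand, was at 0.37. In DNA damage signalling and repair 9 of 69 genes were higher, 13.0% beside the same 3.69%, and 0 lower. They were led by MRE11, a nuclease of broken ends, at 1.67 (1.01 on the mean of its 3 detected probes). The kinase ATM, with 439 and 974 and 698 untreated, was at 1.43. The median of that list was 0.10, and 4 of the 69 were higher without background correction.

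Some large coiled-coil proteins of the Golgi and other membranes were higher by similar amounts. GOLGB1, the giant golgin that tethers vesicles, had 316 under H258 and 825 under H342, with 590 untreated, a log2 difference of 1.82. GOLGA4 had 204 and 388, with 375 untreated, at 1.60 (0.95 without background correction). KTN1, which anchors kinesin to membranes, had 775 and 2181, with 1834 untreated, at 1.71. Of 26 such genes 7 were higher, 26.9% beside 3.69% of all genes tested, and 3 were higher without background correction. The median of the list was 0.14, with 17 genes above 0 and 9 below. GCC1, the 1 lower gene, was at -1.41. TPR, the coiled-coil protein of the nuclear pore basket, had 513 and 1773, with 1246 untreated, at 2.11. Only 2 of 45 genes of the nuclear pore, lamina and envelope were higher, 4.44% beside the same 3.69%. GOLGA8B, at 1.86, and RIMBP3, undetected under H258 and at least 5.72-fold higher on the corrected scale and 2.74-fold without the correction, have near-identical copies, so their signals may hold more than 1 gene.

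**Figure D3:**
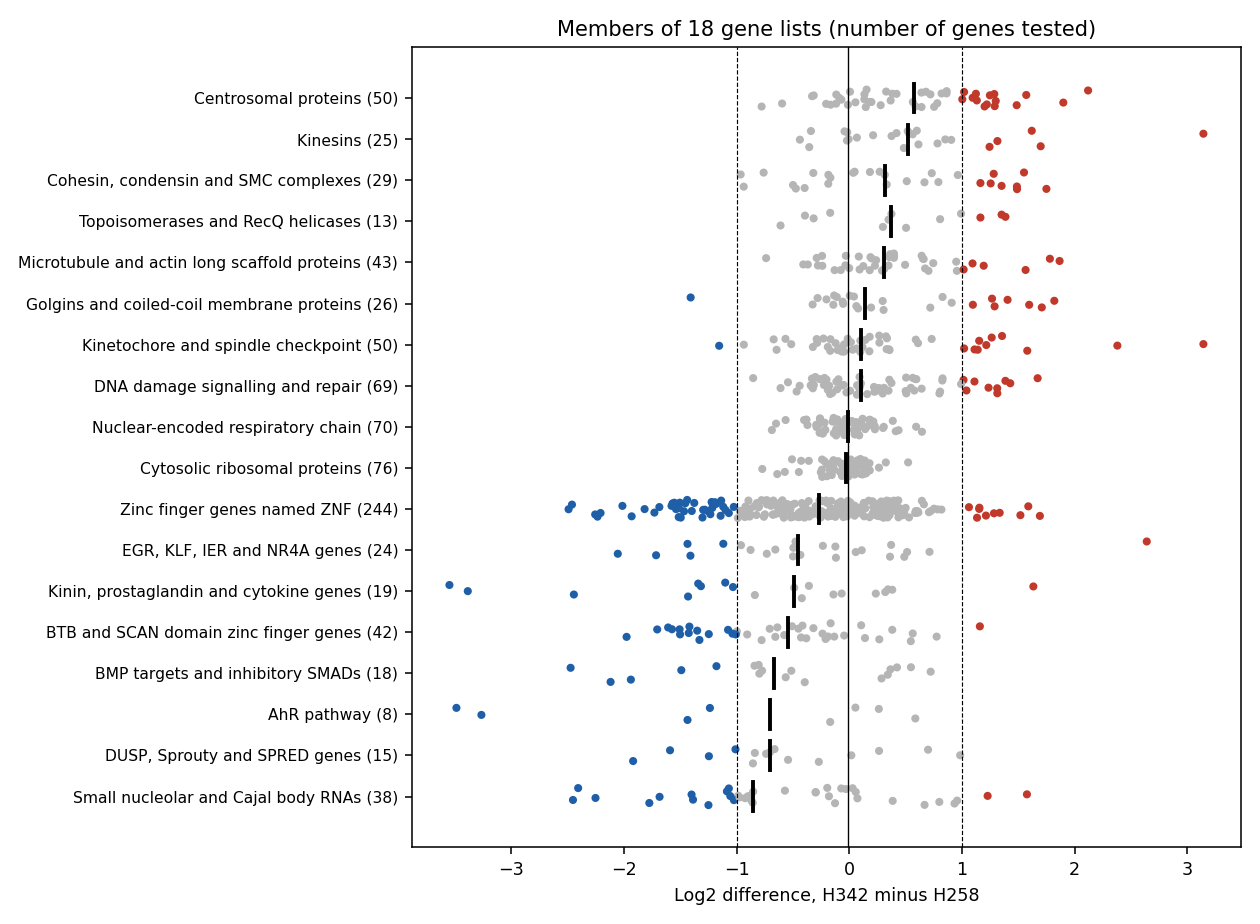
Log2 difference between the arrays (H342 minus H258) of the tested members of 18 gene lists, 1 point a gene, red or blue past 2-fold, with a black bar at each list's median and the number tested in parentheses; the thin line is the median of all genes. Centrosomal proteins have 15 points past 2-fold on the right and 0 on the left, and small nucleolar RNAs 2 on the right and 12 on the left.

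Several large families stayed wholly within 2-fold. Of 76 cytosolic ribosomal protein genes, 76 mitochondrial ones and 70 nuclear-encoded subunits of the respiratory chain, 0 passed 2-fold in either direction, with medians of -0.03, -0.14 and -0.01. Among 19 genes of the BCL2 family MCL1 alone was lower, and among 20 inhibitors of apoptosis and caspases FADD, an adaptor of death receptors, was lower at -1.25. H342 is a known substrate of the efflux pumps ABCB1 and ABCG2, whose probes were not detected on either dye array. Of 26 ABC and organic cation transporter genes tested, ABCC3 was the only one past 2-fold, 3.85% beside 3.69% of all genes tested. It had 1810 against 3396, at 1.06 and at 0.97 in the deposited value table.

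Gene length, taken as the span from start to end in the RefSeq gene table, ran with the direction of the difference. The higher genes had a median length of 61.4 kb, the lower genes 14.4 kb and all genes tested 28.6 kb. In the shortest of 5 bins of equal size, up to 8.87 kb, 30 of 2058 genes were higher and 126 lower, and in the longest, from 86.8 kb, 139 of 2057 were higher and 33 lower. The shares between them changed in the same order, with 35, 64 and 112 higher and 91, 73 and 47 lower. The shift of whole bins was small beside the spread of single genes, with medians from -0.11 in the shortest to 0.12 in the longest, and from -0.08 to 0.09 without background correction. Among the 5035 bright genes the higher calls were 5, 7, 16, 33 and 50 over the 5 bins and the lower calls 28, 16, 15, 2 and 10. Among the lists, median lengths were 60.9 kb for the centrosome, 69.3 kb for kinesins and 89.4 kb for golgins, and 8.55 and 5.70 kb for the cytokine and immediate-early lists. Other lists did not follow this order: kinetochore genes, with 10 of 50 higher, had a median of 28.0 kb, and collagens, with 1 of 22 higher, 115 kb. Length goes with other properties of a gene, such as intron number, transcript length and base composition, which cannot be told apart here.

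Base composition of promoters, which bears on dyes that prefer A and T, showed a weaker order. A promoter window was listed for 8494 of the tested genes, 82.5%. From the bin lowest in A and T to the highest, 2.18%, 3.62%, 4.25%, 4.49% and 4.68% of the genes were higher and 2.87%, 3.56%, 3.36%, 3.83% and 3.22% lower, and the bin medians ran from -0.03 to 0.02. The median A and T content was 37.3% for the higher genes, 35.7% for the lower and 35.3% for all. Windows of a pair of genes from each side are printed with every run of 5 or more A or T in capitals: ID1 (chr20:31605039-31605338, plus strand) and PELO (chr5:52787666-52787965, plus strand), lower under H342, then CENPE (chr4:103198294-103198593, minus strand) and CENPF (chr1:214602945-214603244, plus strand), higher under it.
ID1: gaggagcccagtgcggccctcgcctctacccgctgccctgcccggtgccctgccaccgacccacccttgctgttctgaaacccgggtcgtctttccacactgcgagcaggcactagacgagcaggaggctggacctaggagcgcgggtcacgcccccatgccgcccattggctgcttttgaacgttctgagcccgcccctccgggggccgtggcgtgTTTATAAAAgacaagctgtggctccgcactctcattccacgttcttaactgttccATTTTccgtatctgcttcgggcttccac
PELO: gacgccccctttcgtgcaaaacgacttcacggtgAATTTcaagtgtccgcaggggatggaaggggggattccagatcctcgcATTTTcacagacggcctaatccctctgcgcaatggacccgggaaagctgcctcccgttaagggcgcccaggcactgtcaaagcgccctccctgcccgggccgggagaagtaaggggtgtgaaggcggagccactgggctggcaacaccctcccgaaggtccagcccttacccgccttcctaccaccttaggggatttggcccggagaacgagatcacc
CENPE: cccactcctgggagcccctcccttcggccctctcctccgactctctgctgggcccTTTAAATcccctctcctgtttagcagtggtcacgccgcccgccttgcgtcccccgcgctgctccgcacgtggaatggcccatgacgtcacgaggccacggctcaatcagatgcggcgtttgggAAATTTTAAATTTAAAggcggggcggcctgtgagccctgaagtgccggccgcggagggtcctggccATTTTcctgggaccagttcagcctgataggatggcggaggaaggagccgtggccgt
CENPF: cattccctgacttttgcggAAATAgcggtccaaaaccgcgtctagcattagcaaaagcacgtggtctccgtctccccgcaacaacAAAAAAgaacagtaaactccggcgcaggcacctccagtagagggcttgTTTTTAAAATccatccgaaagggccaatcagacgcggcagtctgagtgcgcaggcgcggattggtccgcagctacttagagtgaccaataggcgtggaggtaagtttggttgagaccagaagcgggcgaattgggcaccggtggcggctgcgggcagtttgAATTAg
ID1 and PELO have 2 runs each, the longest of 9 and 5 bases, CENPE has 3 and CENPF 4, the longest of 16 and 10 bases. At least 1 such run is in 76.5% of all RefSeq promoter windows, so these 4 windows describe themselves and not the groups. The median number of runs was 2 for the higher genes and 1 for the lower and for all.

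**Figure D4:**
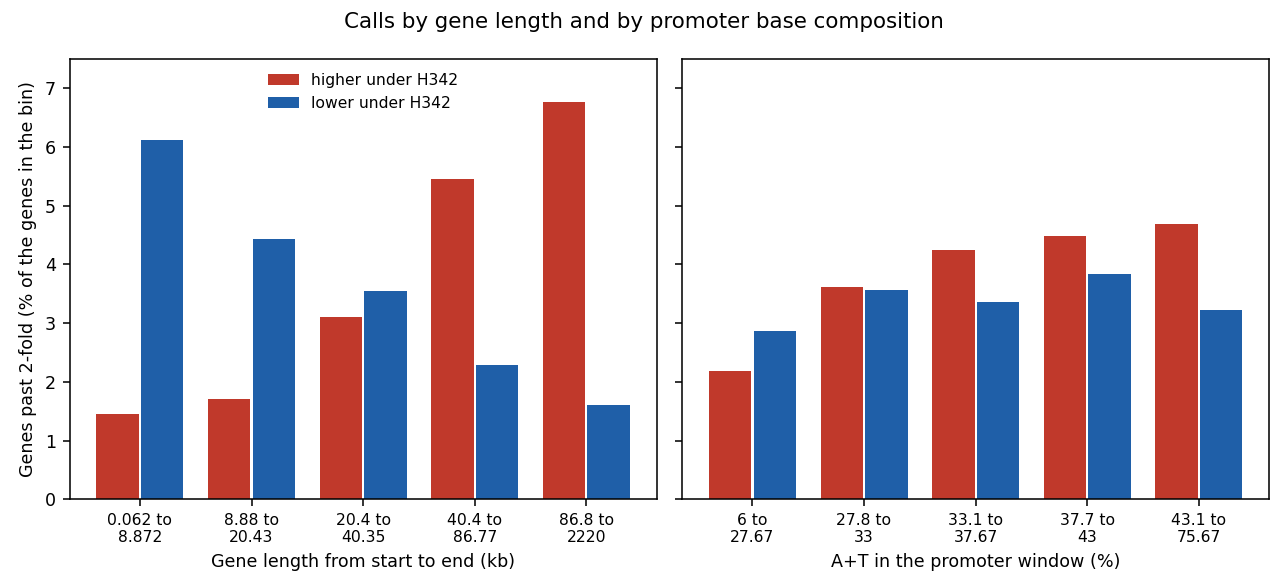
Share of genes higher (red) and lower (blue) by 2-fold or more under H342 than under H258, in 5 bins of equal size by gene length in kb (left) and by the A and T content of the promoter window in percent (right). By length the higher share rises from 1.46% to 6.76% and the lower share falls from 6.12% to 1.60%, and by promoter composition the higher share goes from 2.18% to 4.68%.

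Second probes gave a check that the choice of the brightest probe did not use, on the same RNA. For 111 of the higher genes 137 further probes were detected, of which 126 were higher as well, 52 by 2-fold or more, and 1 was lower by 2-fold or more. For 65 of the lower genes there were 82, of which 73 were lower, 36 by 2-fold or more, and 0 were higher by that much. The untreated array, set beside the calls after all 3 arrays were normalized together, lay nearer to the H342 array for 300 of the 380 higher genes and nearer to the H258 array for 314 of the 371 lower genes. It lay between the dyes for 293 and 284 of them. These genes were chosen for a gap between the dyes, which favors a level between them. The same counts over all genes tested were not made, so these counts are no check of the calls. Just past 2-fold stood CEP128 at 1.003 and AQP12A at -1.002, and just short of it ARMCX3 at 0.9997 and ZBTB7A at -0.9989. The lowest detection p of ZSCAN25 was 0.0487, so it was tested, and that of ABCA4 was 0.0501, so it was not.

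Of 15 mesothelial markers with a probe 8 were detected under H258 and 9 under H342, among them MSLN, WT1, CALB2 and the keratins KRT7, KRT8 and KRT18, and 0 passed 2-fold. UPK3B, LRRN4, PDPN, KRT5, KRT19 and DES were not detected on either dye array. The summed signal of the mesothelial list was 72049 under H258 and 71881 under H342. Of 23 lung carcinoma markers 4 and 5 were detected, with sums of 4465 and 4394, and NAPSA, NKX2-1 and the surfactant genes were not. Of 12 leukocyte markers 3 were detected under H258 and 4 under H342, with sums of 5339 and 4656, and PTPRC was not. Of 8 endothelial markers 3 were detected on each array, with sums of 1338 and 1320.4, and CDH5 and VWF were not. None of these leukocyte or endothelial markers passed 2-fold. Of 11 fibroblast markers 8 were detected on each dye array, a larger share than of the mesothelial list, and DCN, FAP and LUM were not. Their sums were 8044 and 8810, with POSTN the only one past 2-fold, at 1.48. On the whole arrays 15115 probes were detected under H258 and 15248 under H342, and the signals of the H258 and H342 arrays ran from 79.8 and 78.9 to 62367 and 61216.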

How the data were processed

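H258, H342 and untreated H2373 cells have 1 array each, and groups were taken from the treatment labels. The deposited non-normalized signals are bead intensities averaged per probe by the authors with BeadStudio 3.1.3.0 and left without background subtraction, and the detection p-value deposited beside each signal sets it against that array's negative control beads. A further deposited table holds intensities that the authors had normalized; how is not given in the sources used here. The array is named as an earlier version of the BeadChip in the files than in the text.

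With R 4.3.3 and limma 3.58.1, the 2 dye arrays went through neqc, which fits a normal-exponential background using controls it infers from detection p-values, adds an offset of 16, normalizes quantiles and takes log2. The script was checked on simulated data. Tables and plots were made with Python 3.11.15, numpy 2.4.6, pandas 2.3.3 and matplotlib 3.10.9. Of 48798 probes 28093 had 1 symbol in the array annotation, 13 had several and 20692 had none. The brightest probe stood for each of 18851 genes, of which 18827 were in the RefSeq gene table and 24 were not. Of the probes with no symbol 2715 were detected on a dye array and left out of the gene counts. Where a side was not detected, its level was set to the lowest detected one of that array, a signal of 160.0 under H258 and 157 under H342, and the fold is given as at least that large on the background-corrected scale, beside the fold without the correction. Log2 differences of dim genes depend on the background correction, so they are given without it where it moves them by over 1.5 times.

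Named genes were the 16 highest and 16 lowest called genes with an established symbol that kept 2-fold without background correction and in the deposited value table, the 8 highest and 8 lowest called genes with 500 or more on both arrays, and the 4 members of each of 60 lists with the largest difference. Further members are given as values with their list, and 5 lists held cell type markers. Members and lists were chosen with earlier results of these data known. Gene length and promoters are from RefSeq, GRCh38.p14; length replaced a planned protein length, for which no table was at hand, and was chosen after the data were seen. A gene's promoter content is the mean over its windows. The number of arrays limits the precision. Alternatives were the normalization of all 3 arrays, the deposited value table, an offset of 50 or no correction of the background, cyclic loess, scaling to the median or no scaling, other detection filters and folds, and other uses of a gene's probes.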

Additional observations from a re-analysis of the deposited data

How the results depend on the processing

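The 380 genes higher and 371 lower under H342 became 133 and 156 without background correction and 110 and 151 in the deposited value table, and an offset of 50 left 243 higher and 248 lower. At 1.5-fold 1171 were higher and 1056 lower, and at 3-fold 42 and 107. In all other settings run, which were the 3 arrays normalized together, cyclic loess, scaling to the median or none, stricter and absent detection filters, the bound for undetected sides, the mean of a gene's probes and probes in place of genes, the higher genes numbered 328 to 501 and the lower genes 297 to 460. Of 155 named genes past 2-fold, 102 stayed past it without background correction, 98 in the deposited value table and 129 with an offset of 50. None of them turned direction in the deposited value table, which holds the same arrays under another normalization. Without background correction or with an offset of 50 direction could not turn, because the rank order within each array is kept. Differences of genes with signals near 160.0, the lowest detected under H258, depend on the background correction. Their uncertainty was not measured. No paired analysis was possible because each condition has 1 array.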

Other observations

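SAMD9, an antiviral restriction factor, had signals of 178 and 387 for H258 and H342, at 2.05 on the log2 scale (1.14 without background correction). XAF1, an interferon-induced death gene, had 437 and 1051, at 1.57. In all 4 of 39 interferon-stimulated genes were higher, 10.3% beside 3.69% of all genes tested, and 0 lower, with a median of 0.13. Without background correction 2 were higher. RIGI and IFIH1, cytosolic sensors of viral RNA, were at 1.19 and 1.01 but at 0.54 and 0.51 without background correction. Integrins, laminins and matrix glycoproteins had 3 of 43 higher, 6.98% beside the same 3.69%, and 0 lower, with a median of 0.31, and 2 were higher without background correction. POSTN, a matrix protein, had 551 and 1297, at 1.48, and the integrin subunit ITGAV 932 and 2095, at 1.33.

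DKK1, a secreted Wnt inhibitor, had 3612 and 1710, with 10027 untreated, at -1.03. FBXO5, which restrains the ubiquitin ligase of anaphase, had 771 and 389, with 2392 untreated, at -1.21. DKK1 and FBXO5 were at -0.98 and -0.96 without background correction. INSIG1, the sterol sensor's partner, had 3239 and 1139, with 2008 untreated, at -1.52 (-1.165 on the mean of its 2 detected probes), and was the only one of 29 sterol and fatty acid synthesis genes past 2-fold. H4C3, a histone H4 gene, had 44373 and 17792, at -1.21, the only one of 43 histone genes past 2-fold; histone genes are near-identical copies, so its signal may hold several. Of the 2715 detected probes with no gene symbol, 80 were higher and 63 lower by 2-fold or more, 2.95% and 2.32%.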
